A study of Mus musculus with 9 samples.

Results

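Long noncoding RNAs are transcripts that are not translated and act, where an action is known, as RNA or through the act of their transcription. A set of 8 such genes known from T cells was followed here across 3 clones of mouse CD8 T cells: Malat1, Neat1, Gas5, Snhg1, Snhg8, Snhg12, Dleu2 and Tmevpg1. They were chosen by symbol, and, as with the gene lists used below, earlier results of these data were known. Counts over them are thus not independent of the data. All 8 members had a row among the 24060 genes measured by RNA-seq. They were also among the 12115 genes whose highest value was over 1 TPM, which were tested. TPM, the unit of the deposited values, is a level of transcripts divided by gene length and scaled to the same total in every sample, so that levels of different genes can be set side by side.

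The mice were of the transnuclear lines Rop7-I, -II and -III, which had been backcrossed to BALB/c. Each line was cloned by transfer of the nucleus of a single CD8 T cell and so carries that cell's rearranged T-cell receptor (TCR) genes. The paper calls the CD8 T cells of its transcriptome comparisons homozygous. All 3 lines recognise the Rop7 epitope of Toxoplasma gondii on H-2Ld, and they differ in their TCR. Each group was 1 clone with 3 biological replicates, 9 samples in all, with no wild-type samples among them, so a difference between 2 groups cannot be told apart from a difference between 2 lines of mice in anything other than the TCR. In every group splenocytes were left overnight with 10 ng of IL-2 per ml and no antigen, and CD8 T cells were then sorted by CD3, CD8 and binding of H-2Ld-Rop7, so that the clones share this treatment. The age of the mice, and whether the replicates came from separate mice, are not given in the sources used here, so the p-values measure the spread between these samples, which may be technical.

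In mammals these RNAs fall into a few classes. Malat1 and Neat1 are abundant nuclear RNAs transcribed from neighbouring genes, of which Malat1 gathers in nuclear speckles, stores of splicing factors, and Neat1 is the scaffold of paraspeckles. Gas5 and the Snhg genes are hosts whose introns are processed into small nucleolar RNAs (snoRNAs), which guide the modification of ribosomal RNA, while the spliced host RNA is often bound by ribosomes and removed by nonsense-mediated decay (NMD). Dleu2 is the host of the miR-15a and miR-16-1 microRNAs. Tmevpg1, also named Ifngas1 or NeST, lies beside Ifng, the gene for interferon-γ, and is known to favour its transcription in T cells.

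In the RefSeq annotation of GRCm38, the build that the study's mm10 names, Malat1 (chr19:5795690-5802672) and Neat1 (chr19:5824708-5845480) lie on the minus strand, 22.0 kb apart. Gas5 is at chr1:161034601-161038539 and Snhg1 at chr19:8723487-8726326, both on the plus strand. Snhg8 is at chr3:123507552-123508336 on the minus strand and Snhg12 at chr4:132308678-132311024 on the plus strand. Dleu2 (chr14:61602836-61682373, minus strand) is 7.38 Mb from Trac, the constant segment of the TCRα locus, which is rearranged in these lines. Tmevpg1, listed in RefSeq as Ifngas1, is at chr10:118502035-118556525 on the minus strand, and its near end is 56.1 kb from Ifng (chr10:118441046-118445894, plus strand). The libraries were not strand-specific, so reads of a gene and of an antisense partner cannot be told apart. By the GENCODE annotation Zbtb37 overlaps Gas5, and Trim13 and Kcnrg overlap Dleu2, all on the opposite strand and with 0 shared bases of exon. Opposite-strand transcripts that share exon bases are Gm37376 with Malat1 (453 bases) and Gm26916 with Dleu2 (352 bases), besides short RNAs that share 85 to 137 bases with Dleu2. None of these had a row in the table, so the values of Malat1 and Dleu2 may hold their reads.

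The 2 microRNAs that Dleu2 hosts are shown with RefSeq's mature sequences, because they are the known product of that gene and share a seed. Capitals mark the seed, bases 2 to 8. Both are 22 bases long and have their first 9 bases in common, and they lie on the minus strand at chr14:61631936-61631957 and chr14:61632075-61632096.
miR-16-5p: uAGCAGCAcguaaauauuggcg
miR-15a-5p: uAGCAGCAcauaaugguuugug

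For the snoRNA hosts the first bases of the transcript are the known feature of the class: many begin with a run of pyrimidines, the 5′ terminal oligopyrimidine (TOP) motif that they share with genes of the translation machinery. Each RefSeq window below holds 10 bases before the annotated start and 30 bases from it, read along the transcribed strand, and capitals mark the unbroken run of C or T from the first base. Gas5 has a pair of annotated starts.
Gas5, first start, chr1:161034591-161034630: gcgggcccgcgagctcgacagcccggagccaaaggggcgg
Gas5, second start, chr1:161035156-161035195: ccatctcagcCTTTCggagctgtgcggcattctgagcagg
Snhg1, chr19:8723477-8723516: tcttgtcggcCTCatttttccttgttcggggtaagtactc
Snhg8, chr3:123508307-123508346: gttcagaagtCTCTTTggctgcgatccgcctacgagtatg
Snhg12, chr4:132308668-132308707: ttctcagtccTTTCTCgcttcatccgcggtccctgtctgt
The run was 5 bases at the second Gas5 start, 6 at Snhg8, 6 at Snhg12 and 3 at Snhg1, and the first Gas5 start had none. The run at Snhg12 begins with T and the others with C. A run of at least 5 bases, with either C or T as its first base, stood at the start in 1457 of all 32851 RefSeq windows, or 4.44%, searched on the transcribed strand alone. Whether a run meets the full definition of the TOP motif was not checked. These runs are descriptions of annotated starts, since the files do not show where transcription began.

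The T-cell identity of the samples was plain from the sum of 9 markers such as Cd3e, Cd8a and Lck, which lay between 7776 and 8632 TPM in all 9 samples. By the purity that the paper reports, the sorted cells were not fully pure, so the samples could hold some other cells. Markers of other cells varied, and 2 samples stood apart. One was Rop7-II replicate 1, with 2598 TPM of summed B-cell markers against 157.7 to 1116 in the other samples and 734.2 TPM of summed myeloid markers against 40.62 to 273.3. The other was Rop7-I replicate 2, with 2440 TPM of summed erythroid markers against 27.16 to 481.3 in the other samples; the other 2 Rop7-I samples had 400.7 and 475.4. Each result of the 8 RNAs that passes its test is therefore also given without these samples. Among the genes of the lists described below, which are no members, 41 differences passed. Without Rop7-II replicate 1, 31 of them still passed, without Rop7-I replicate 2, 26 did, and all 41 kept their sign in both fits. In bulk samples such as these, fewer cells of a type and less RNA per cell cannot be told apart.

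The 8 RNAs spanned a wide range of levels and kept one order, from Neat1 through Malat1, Snhg1, Gas5, Snhg12, Snhg8 and Dleu2 down to Tmevpg1, in all 9 samples. Neat1 was 1.43 to 2.98 times as high as Malat1 within a sample, and the pair made up 80.9% to 87.5% of the summed TPM of the 8 RNAs. All 8 together took 0.152% to 0.215% of a sample's TPM. Across samples the ranges of neighbours in this order overlapped for Snhg1 with Gas5 and for Snhg12 with Snhg8, and for no other neighbours. The libraries were made from polyadenylated RNA, and Malat1 and the long form of Neat1 end without a poly(A) tail of the usual kind, so that their TPM is the level of what this selection captured. The file gives 1 value per gene, in which the 2 RefSeq transcripts of Neat1 are not kept apart.

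**Figure D1:**
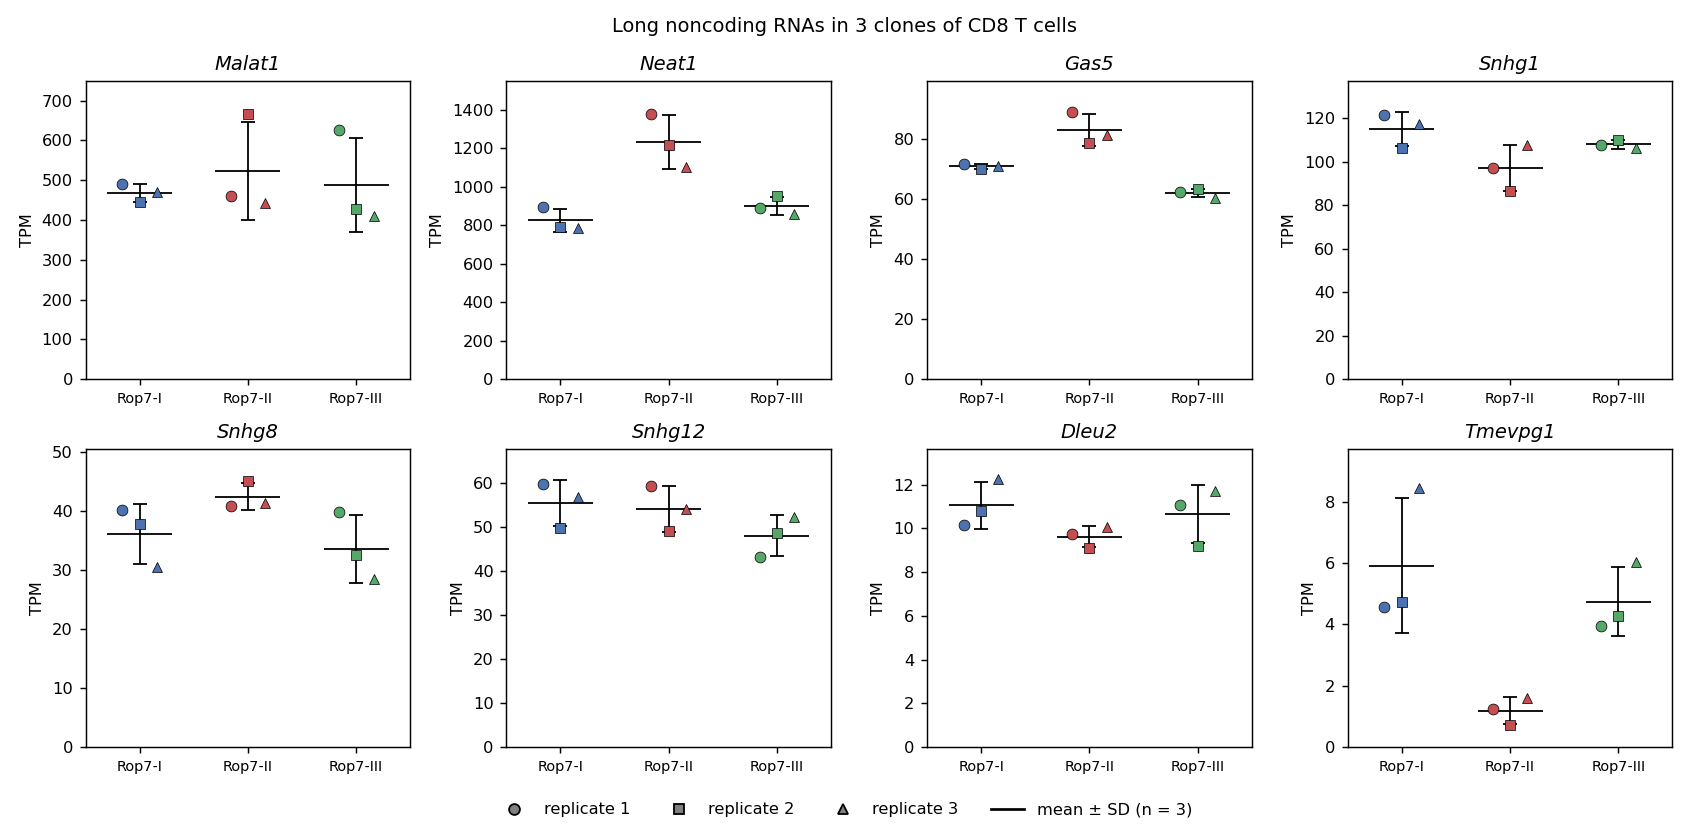
TPM of each of the 8 long noncoding RNAs (vertical axes, linear from 0) in the 3 replicates of Rop7-I, Rop7-II and Rop7-III; symbols are samples, lines the mean and bars the SD of 3 samples. Neat1 and Gas5 are highest in the 3 Rop7-II samples and Tmevpg1 is lowest there, while the Malat1 samples of the 3 clones overlap.

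The clones differed in 3 of the 8 RNAs. Neat1 and Gas5 were higher, and Tmevpg1 lower, in Rop7-II compared with Rop7-III, and in Neat1 and Tmevpg1 the difference from Rop7-I passed as well. A gene passes here at an adjusted p under 0.01 in limma, on log2(TPM + 1), adjusted over all genes tested. Malat1, Snhg1, Snhg8, Snhg12 and Dleu2 passed in no pair. The F test over the 3 clones, from the same fit, passed for the same 3 RNAs and for 14.1% of all genes tested.

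Between Rop7-III and Rop7-II, 3 of 8 members passed, beside 12.3% of all genes tested. One was higher in Rop7-III (background 6.39%) and 2 were lower (background 5.89%), and 1 of them, Tmevpg1, also differed by at least 2-fold (background 1.70%). The samples of these clones did not overlap in 4 members, Neat1, Gas5, Snhg8 and Tmevpg1, and in 40.7% of all genes. Between Rop7-I and Rop7-II, 2 of 8 passed (background 7.53%), 1 higher in Rop7-I (3.67%) and 1 lower (3.85%), and again Tmevpg1 was the 1 with at least a 2-fold difference (0.949%). Here 5 members did not overlap, the same 4 and Dleu2, beside 35.0% of all genes. Between Rop7-III and Rop7-I, 0 of 8 passed, where 4.85% of all genes did, 2.58% higher and 2.28% lower in Rop7-III, 1.06% with at least 2-fold. At an unadjusted p under 0.05 Gas5 alone of the members differed between Rop7-III and Rop7-I, and it was also the 1 member whose samples did not overlap there, beside 38.2% of all genes. Each clone serves in 2 of these pairs, so the pairs are not independent of one another.

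**Figure D2:**
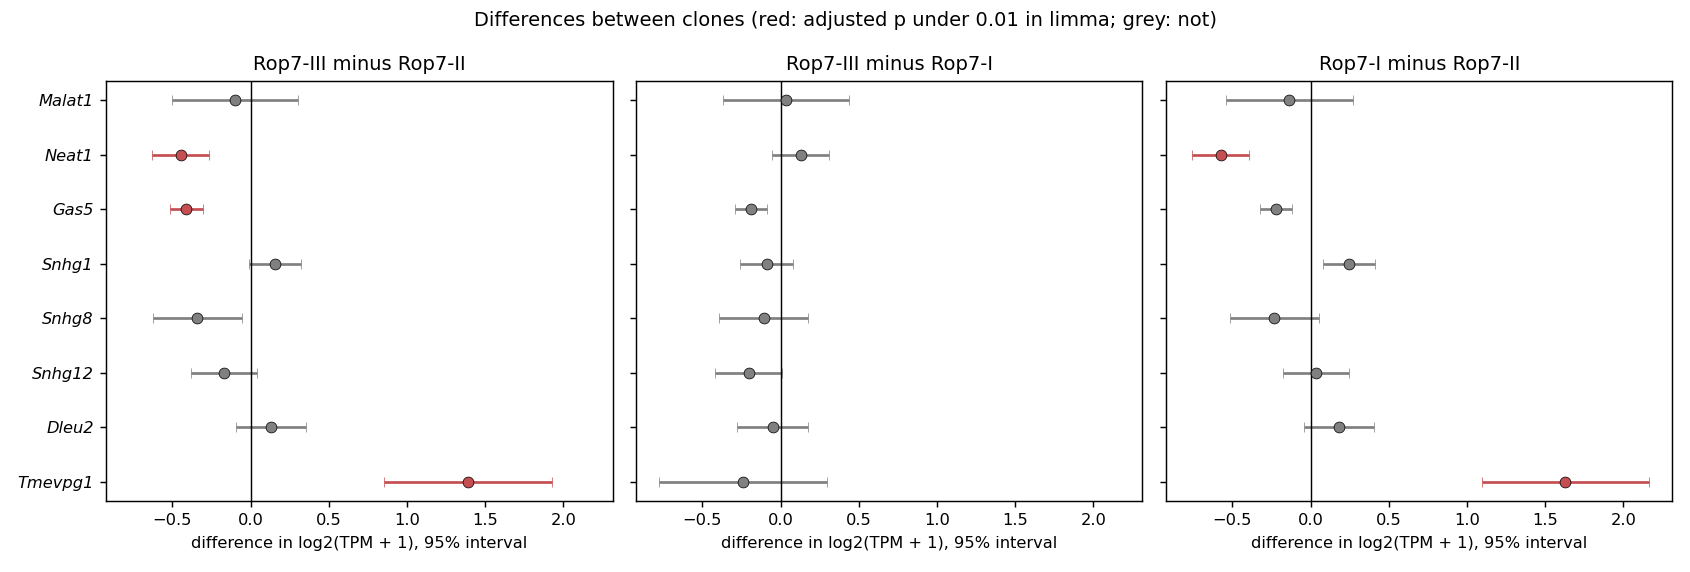
Difference in log2(TPM + 1) between 2 clones (horizontal axis) with its 95% interval from limma for each of the 8 RNAs, one panel per pair of clones. The intervals drawn in red passed at an adjusted p under 0.01: Neat1, Gas5 and Tmevpg1 between Rop7-III and Rop7-II, and Neat1 and Tmevpg1 between Rop7-I and Rop7-II.

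Among the nuclear RNAs, Neat1, without which paraspeckles do not form, was measured at 1377, 1216 and 1100 TPM in Rop7-II. Its values were 896, 792 and 786 TPM in Rop7-I and 891, 949 and 860 in Rop7-III. Every Rop7-II sample was thus above every other sample, and the other 2 clones overlapped. The mean of Rop7-II was 1.37 times that of Rop7-III (log2 difference of Rop7-III minus Rop7-II -0.45, 95% interval -0.63 to -0.26, limma adjusted p = 0.00409) and 1.49 times that of Rop7-I (Rop7-I minus Rop7-II -0.57, -0.76 to -0.39, adjusted p = 0.00169). Rop7-III minus Rop7-I was 0.13 (-0.05 to 0.31, adjusted p = 0.342).

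The call of Neat1 against Rop7-III was close to its limit. Without Rop7-II replicate 1 the log2 difference of Rop7-III minus Rop7-II was -0.36 (limma adjusted p = 0.00706), and that of Rop7-I minus Rop7-II was -0.49 (adjusted p = 0.00253). It no longer passed when Rop7-II replicate 2 was left out (adjusted p = 0.0113) or any 1 of the Rop7-III replicates was (adjusted p = 0.0196, 0.0107 and 0.0205 without replicates 1, 2 and 3), with differences of -0.41 to -0.48. The call of Neat1 against Rop7-I was lost without Rop7-I replicate 2 (-0.55, adjusted p = 0.0113), and without that sample the difference of Rop7-III minus Rop7-II was -0.45 (adjusted p = 0.00815). In fits of only the 2 clones compared neither call was made (adjusted p = 0.0149 against Rop7-III and 0.0125 against Rop7-I), and with no trend of the spread the call against Rop7-III was not made either (adjusted p = 0.0125).

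Markers of myeloid cells moved in part with Neat1. The sum of 13 such markers, among them the lysozyme gene Lyz2, was 734.2, 81.02 and 273.3 TPM in Rop7-II replicates 1 to 3, 60.65 to 149.5 in Rop7-I and 40.62 to 90.61 in Rop7-III. Lyz2 was 485, 35.0 and 161 TPM in Rop7-II against 19.8 to 83.4 in the other samples. The granulocyte genes S100a8 and S100a9 were higher in each Rop7-II sample than in each other sample: S100a9 was 30.9, 13.4 and 25.7 TPM in Rop7-II, 3.41 to 3.67 in Rop7-I and 0 to 11.5 in Rop7-III. The level of the myeloid markers was also used as a covariate, an alternative chosen after seeing the data. The log2 difference of Neat1 was then -0.41 between Rop7-III and Rop7-II (limma adjusted p = 0.0574) and -0.55 between Rop7-I and Rop7-II (adjusted p = 0.00802). The part of myeloid cells in the level of Neat1 was not tested otherwise.

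**Figure D3:**
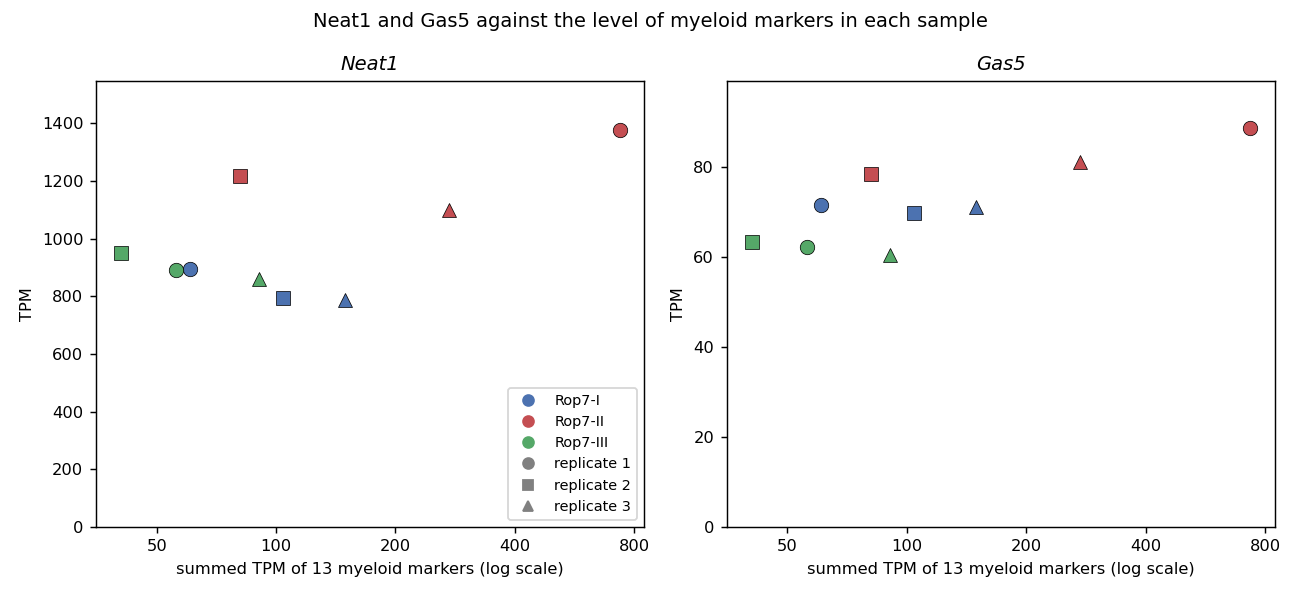
TPM of Neat1 and Gas5 (vertical axes, linear from 0) against the summed TPM of 13 myeloid markers (horizontal axis, log scale) in each of the 9 samples, coloured by clone, with a symbol for each replicate number. The Rop7-II samples lie at 734.2, 81.02 and 273.3 TPM of myeloid markers, of which the first and the last are the highest of all 9 samples.

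Malat1, which is retained in nuclear speckles and is abundant in many cell types, was at 490, 445 and 470 TPM in Rop7-I. It was at 461, 666 and 442 TPM in Rop7-II and at 625, 428 and 411 in Rop7-III. One sample of Rop7-II and 1 of Rop7-III were high and the other samples of the 3 clones lay close together, so that the spread within clones exceeded the differences between them. The within-clone SD of Malat1 on the log2 scale, 0.27, was larger than that of 97.7% of the 8461 genes with a mean of at least 10 TPM. The log2 differences of Malat1 were -0.10 (95% interval -0.51 to 0.30) for Rop7-III minus Rop7-II, 0.03 (-0.37 to 0.44) for Rop7-III minus Rop7-I and -0.14 (-0.54 to 0.27) for Rop7-I minus Rop7-II. Each of these 3 signs turned when 1 of the samples was left out. Neat1, its neighbour on chromosome 19, was the steadier of the pair over the 3 clones together, with a within-clone SD of 0.12. That SD was still larger than that of 84.7% of the same 8461 genes. Within Rop7-I alone Neat1 varied more, with an SD of 7.48% of its mean against 4.79% for Malat1.

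The genes of the bodies in which these RNAs reside were taken from lists of 20 paraspeckle and 22 nuclear speckle proteins, all tested. Of the paraspeckle proteins 3 were lower and 0 higher in Rop7-III compared with Rop7-II, beside 5.89% and 6.39% of all genes, with a median log2 difference of -0.06 against -0.02 over all genes. Pspc1, a core paraspeckle protein of the same family as Sfpq and Nono, was 32.5, 31.5 and 26.6 TPM in Rop7-II and 22.4, 21.7 and 19.2 in Rop7-III (log2 difference -0.49, limma adjusted p = 0.00479). In Rop7-I it was 25.8, 29.4 and 24.9 TPM and overlapped with Rop7-II. The other 2 were Taf15, an RNA-binding protein of the FET family (-0.27, adjusted p = 0.00335), and Cpsf7, a subunit of a cleavage factor for 3′ ends (-0.13, adjusted p = 0.00843). None of these 3 passed without Rop7-II replicate 1 (Pspc1 -0.44, Taf15 -0.25 and Cpsf7 -0.12, adjusted p = 0.0152, 0.0107 and 0.0232), and Cpsf7 did not pass without Rop7-I replicate 2 either (adjusted p = 0.0130). Sfpq and Nono, the other core proteins, had log2 differences of 0.04 and 0.05 and did not pass. No paraspeckle protein passed between Rop7-I and Rop7-II, where Neat1 and 7.53% of all genes did. Between Rop7-III and Rop7-I, 2 were lower, Taf15 (-0.33, adjusted p = 0.00252) and Hnrnpa1 (-0.20, adjusted p = 0.00764), beside 2.28% of all genes, and neither passed without Rop7-I replicate 2 (adjusted p = 0.0140 and 0.0269).

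Of the 22 nuclear speckle proteins, 6 were lower and 2 higher in Rop7-III compared with Rop7-II (median log2 difference -0.06), beside 5.89% and 6.39% of all genes. The lower ones were the splicing factors Srsf3, Srsf4, Srsf5 and Srsf7, the 3′ splice site factor U2af2 and the RNA helicase Ddx39b. Srsf5 was 1295, 1177 and 1227 TPM in Rop7-II and 1023, 992 and 998 in Rop7-III (-0.29, limma adjusted p = 0.000843). The 2 higher ones were Clk1, a kinase of these splicing factors (0.23, adjusted p = 0.00374), and Acin1 (0.17, adjusted p = 0.00191). Srsf4 (-0.19, adjusted p = 0.00393) and Srsf5 (-0.24, adjusted p = 0.00345) were also lower in Rop7-I compared with Rop7-II, the 2 of 22 that passed there, beside 3.85% of all genes lower. Without Rop7-II replicate 1 Srsf4 passed in neither pair (adjusted p = 0.0182 against Rop7-III and 0.0108 against Rop7-I), and without Rop7-I replicate 2 Srsf4 and Srsf5 did not pass against Rop7-I (adjusted p = 0.0189 and 0.0183). Between Rop7-III and Rop7-I, Acin1 was higher and Ddx39b lower in Rop7-III, beside 2.58% and 2.28% of all genes. No other of the 22 passed there. Ddx39b did not without Rop7-I replicate 2 (adjusted p = 0.0218).

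Among the snoRNA hosts, Gas5, named for growth arrest because its RNA builds up in cells that stop growing, followed the order Rop7-II, Rop7-I, Rop7-III with no overlap. It was 88.7, 78.4 and 81.1 TPM in Rop7-II, 71.6, 69.8 and 71.0 in Rop7-I, and 62.2, 63.3 and 60.4 in Rop7-III. The 3 clones thus stood apart in every pair, with the samples of Rop7-I and Rop7-III close together within their clone. The mean of Rop7-II was 1.34 times that of Rop7-III (log2 difference -0.41, 95% interval -0.51 to -0.31, limma adjusted p = 0.000319). The steps to Rop7-I did not pass: Rop7-I minus Rop7-II was -0.22 (-0.32 to -0.12, adjusted p = 0.0115) and Rop7-III minus Rop7-I was -0.19 (-0.29 to -0.09, adjusted p = 0.0283).

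The Gas5 difference between Rop7-III and Rop7-II passed without each sample in turn, with log2 differences of -0.45 to -0.36. Without Rop7-II replicate 1 it was -0.36 (limma adjusted p = 0.000333), and the difference between Rop7-III and Rop7-I then passed at -0.19 (adjusted p = 0.00659). The difference between Rop7-I and Rop7-II passed without Rop7-II replicate 2 at -0.26 (adjusted p = 0.00884). Without Rop7-I replicate 2, Rop7-III minus Rop7-II was -0.41 (adjusted p = 0.00103), and with the myeloid marker level as a covariate it was -0.33 (adjusted p = 0.00918).

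The 3 Snhg hosts did not pass in any pair. Snhg1 was 121, 106 and 117 TPM in Rop7-I, 97.2, 86.4 and 108 in Rop7-II and 108, 110 and 106 in Rop7-III. The samples of all 3 pairs of clones overlapped, and the largest difference was 0.25 for Rop7-I minus Rop7-II (95% interval 0.08 to 0.41, limma adjusted p = 0.0509). Snhg1 was therefore on the other side from Gas5 in this pair, with a positive value where that of Gas5 was negative, and neither passed.

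Snhg8 was 40.2, 37.9 and 30.5 TPM in Rop7-I, 40.9, 45.1 and 41.3 in Rop7-II and 39.8, 32.5 and 28.5 in Rop7-III. Each Rop7-II sample was above all others, by less than 1 TPM for the nearest pair, and the log2 difference of Rop7-III minus Rop7-II was -0.34 (95% interval -0.62 to -0.06, limma adjusted p = 0.0797). Snhg12 was 59.9, 49.8 and 56.9 TPM in Rop7-I, 59.4, 49.0 and 54.1 in Rop7-II and 43.2, 48.7 and 52.3 in Rop7-III. Its samples overlapped in all 3 pairs, and its differences were -0.17 (-0.38 to 0.04), -0.21 (-0.42 to 0.01) and 0.04 (-0.18 to 0.25) in the order of Rop7-III minus Rop7-II, Rop7-III minus Rop7-I and Rop7-I minus Rop7-II.

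Most snoRNAs of these hosts could not be read from the data. RefSeq places 8 snoRNAs within Gas5 and 8 within Snhg1, 1 of each with a row in the table, and 1 within Snhg8 and 4 within Snhg12, all with a row. Snord47 of Gas5, Snora24 of Snhg8, and Snora61 and Snord99 of Snhg12 were listed at 0 in all 9 samples. Snora16a of Snhg12 ranged from 0 to 8.77 TPM and Snora44 from 0 to 9.09, each listed at 0 in 2 samples, and neither passed in any pair (largest log2 difference -1.55 for Snora44, Rop7-III minus Rop7-I, limma adjusted p = 0.145). Such short RNAs are largely lost from libraries of polyadenylated RNA. Snord22 of Snhg1 was 18.7, 9.76 and 19.4 TPM in Rop7-I, 23.9, 24.3 and 18.3 in Rop7-II and 12.1, 12.0 and 8.18 in Rop7-III. Its Rop7-II samples were above those of Rop7-III, with a log2 difference of -0.99 that did not pass (limma adjusted p = 0.0178). By the GENCODE annotation all 126 bases of Snord22 lie within exons of Snhg1 transcripts. The other hosted snoRNAs with a row share 74 to 137 bases with exons of their hosts, among them Snora44 with 129. Reads of a host and of its snoRNAs are therefore uncertain.

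Other snoRNA host RNAs did not pass either. Of 17 listed, 8 were tested and 0 passed in any pair or in the F test. Of all genes, 12.3%, 4.85% and 7.53% passed in Rop7-III minus Rop7-II, Rop7-III minus Rop7-I and Rop7-I minus Rop7-II, and 14.1% in the F test. The smallest F-test adjusted p of these 8 was that of Snhg5 (0.0279). Its log2 difference was -0.20 between Rop7-III and Rop7-II (limma adjusted p = 0.0238). Of the 16 proteins tested that assemble or form snoRNA particles, such as Fbl and Dkc1, 0 passed in any pair, beside the same shares of all genes. The smallest F-test adjusted p was that of Ruvbl2, an ATPase of their assembly (0.0176), with -0.22 for Rop7-III minus Rop7-II (adjusted p = 0.0138). Of the 16 NMD factors, 1 passed in 1 pair, beside 7.53% of all genes there: Smg1, the kinase of Upf1, was lower in Rop7-I compared with Rop7-II (-0.28, adjusted p = 0.00957) and did not pass between Rop7-III and Rop7-II (-0.21, adjusted p = 0.0242). Its call was lost without Rop7-II replicate 1 (adjusted p = 0.0117) and without Rop7-I replicate 2 (adjusted p = 0.0436).

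The mRNAs known to carry the TOP motif, of translation factors and similar genes, had the opposite sign to Gas5 where they passed against Rop7-II. Of 16 tested, 6 were higher in Rop7-III compared with Rop7-II and 0 lower (beside 6.39% and 5.89% of all genes), with a median log2 difference of 0.12 against -0.02 over all genes, and 3 were higher in Rop7-I compared with Rop7-II and 0 lower (beside 3.67% and 3.85%). Eif3e, a subunit of initiation factor eIF3, was 354, 389 and 371 TPM in Rop7-II and 481, 456 and 484 in Rop7-III (0.35, limma adjusted p = 0.000864). The nascent-chain protein Naca (0.21, adjusted p = 0.00126), Eif3f (0.32, adjusted p = 0.00275) and Eif3h (0.21, adjusted p = 0.00250) were also higher in Rop7-III, with Eef1b2 and Eef2. Npm1, a nucleolar chaperone, was higher in Rop7-I compared with Rop7-II (0.27, adjusted p = 0.00119), as were Eif3e and Naca. Between Rop7-III and Rop7-I, Eif3f was higher and Hnrnpa1, which is on the paraspeckle list too, was lower, beside 2.58% and 2.28% of all genes. Eef1b2 and Eef2 did not pass without Rop7-II replicate 1 (adjusted p = 0.0222 and 0.0152) or Rop7-I replicate 2 (both 0.0149). Without Rop7-I replicate 2 Eif3e did not pass between Rop7-I and Rop7-II (adjusted p = 0.0182), nor Eif3f and Hnrnpa1 between Rop7-III and Rop7-I (adjusted p = 0.0384 and 0.0269).

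Dleu2, the host of the microRNAs printed above, was 10.1, 10.8 and 12.2 TPM in Rop7-I, 9.73, 9.09 and 10.1 in Rop7-II and 11.1, 9.19 and 11.7 in Rop7-III. The Rop7-I samples lay just above those of Rop7-II and the other pairs overlapped. The log2 difference of Rop7-I minus Rop7-II was 0.18 (95% interval -0.04 to 0.41, limma adjusted p = 0.251), and those of Rop7-III minus Rop7-II and Rop7-III minus Rop7-I were 0.13 (-0.10 to 0.35) and -0.05 (-0.28 to 0.17). The rows of Mir15a and Mir16-1 were listed at 0 in all 9 samples. Mature microRNAs are not captured by libraries of this kind, so the levels of the microRNAs were not measured.

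Of the 16 genes listed around Dleu2 or as known targets of this seed, 12 were tested and 1 passed, in both pairs with Rop7-II, beside 12.3% of all genes against Rop7-III and 7.53% against Rop7-I. Bcl2, an inhibitor of apoptosis and the best known target of the family, was 12.1, 12.9 and 13.6 TPM in Rop7-II, 19.6, 19.3 and 17.7 in Rop7-III and 16.4, 20.9 and 17.3 in Rop7-I. All Rop7-II samples were below all others, with log2 differences of 0.52 for Rop7-III minus Rop7-II (limma adjusted p = 0.00335) and 0.46 for Rop7-I minus Rop7-II (adjusted p = 0.00828). Without Rop7-II replicate 1 neither passed (0.48 and 0.42, adjusted p = 0.0111 and 0.0229), and without Rop7-I replicate 2 the one against Rop7-I did not (adjusted p = 0.0210). Wee1, a kinase that holds back mitosis, was 1.37, 1.69 and 2.08 TPM in Rop7-I, 1.57, 0.79 and 0.38 in Rop7-II and 2.07, 2.31 and 2.58 in Rop7-III, with 0.84 for Rop7-III minus Rop7-II (adjusted p = 0.0233). Cdc25a, a cell cycle phosphatase (0.23, adjusted p = 0.0182), and Rnaseh2b, near Dleu2 (0.35, adjusted p = 0.0282), were also without overlap in that pair and did not pass. Ccne1, cyclin E1, had -0.18 (adjusted p = 0.0820). The G1 cyclins Ccnd2 and Ccnd3 and the kinase Cdk6, other targets, did not pass, with log2 differences of 0.03, -0.14 and 0.12 for Rop7-III minus Rop7-II. Trim13 and Kcnrg, which overlap Dleu2 on the opposite strand, did not pass in any pair.

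Tmevpg1 had the largest differences of the 8 members and the lowest level. It was 4.56, 4.72 and 8.45 TPM in Rop7-I, 1.25, 0.74 and 1.59 in Rop7-II and 3.94, 4.28 and 6.02 in Rop7-III. Each Rop7-II sample was below each of the 6 other samples, and Rop7-I and Rop7-III overlapped. The mean of Rop7-III was 3.98 times that of Rop7-II (log2 difference 1.39, 95% interval 0.85 to 1.93, limma adjusted p = 0.00306), and the mean of Rop7-I was 4.95 times that of Rop7-II (1.63, 1.09 to 2.17, adjusted p = 0.00209). Differences on the log2(TPM + 1) scale understate the change of a gene this low. Rop7-III minus Rop7-I was -0.24 (-0.78 to 0.30, adjusted p = 0.559).

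Without Rop7-II replicate 1 the log2 differences of Tmevpg1 were 1.42 for Rop7-III minus Rop7-II (limma adjusted p = 0.00740) and 1.66 for Rop7-I minus Rop7-II (adjusted p = 0.00524). Against Rop7-I the call held without each sample in turn (without Rop7-I replicate 2, 1.74, adjusted p = 0.00728), but not in a fit of only the 2 clones (adjusted p = 0.0122). Against Rop7-III it held without Rop7-I replicate 2 (1.39, adjusted p = 0.00571) and was lost without Rop7-III replicate 2 (1.44, adjusted p = 0.0118) or replicate 3 (1.24, adjusted p = 0.0152). The number of reads behind these low values is unknown, since TPM hold no counts, and their counting error cannot be given.

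Ifng, the neighbour of Tmevpg1, was at the bottom of the scale in all clones. It was listed at 0.10, 0 and 0.12 TPM in Rop7-I, 0.14, 0 and 0 in Rop7-II and 0.09, 0.12 and 0.16 in Rop7-III. All 9 values were under 0.2 TPM and overlapped between the clones, so that Ifng stayed below the limit of 1 TPM and was not tested in the main fit. Without that limit its log2(TPM + 1) differed by 0.10 between Rop7-III and Rop7-II (limma adjusted p = 0.344) and by 0.04 between Rop7-I and Rop7-II (adjusted p = 0.789). Il22 and Iltifb, the other cytokine genes of the locus, were listed at 0 throughout. Mdm1, a further gene of the region, was 7.38 to 13.1 TPM and did not pass (Rop7-III minus Rop7-II 0.48, adjusted p = 0.0134).

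**Figure D4:**
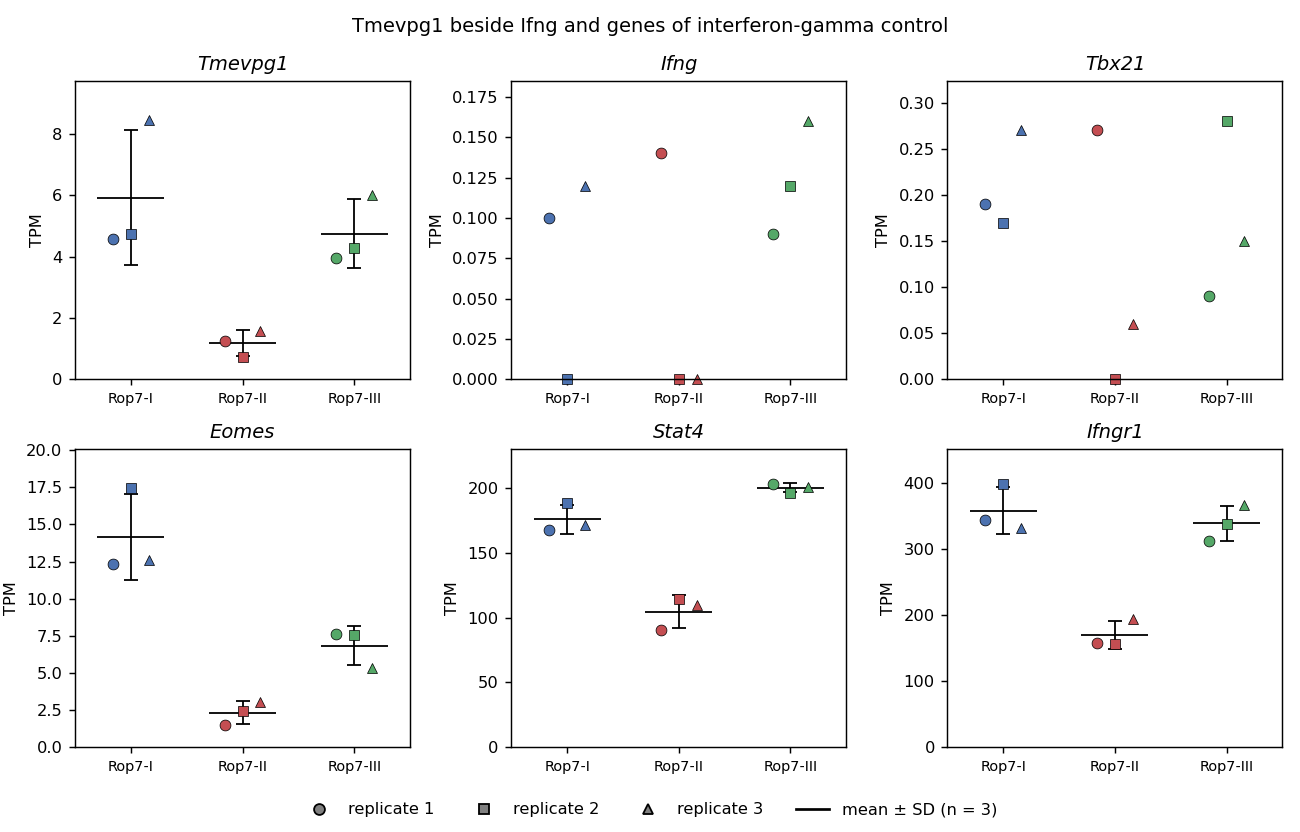
TPM (vertical axes, linear from 0, each on its own scale) of Tmevpg1, of Ifng and of Tbx21, Eomes, Stat4 and Ifngr1 in the 3 replicates of each clone; symbols are samples, lines the mean and bars the SD of 3 samples, left out for Ifng and Tbx21, which are listed at 0 in some samples. Tmevpg1, Eomes, Stat4 and Ifngr1 are lowest in the 3 Rop7-II samples, while Ifng and Tbx21 stay under 0.3 TPM in all 9.

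Genes known to control Ifng or to pass on its signal are given as single genes, with no count over the list. Tbx21, the gene of T-bet, on which induction of Tmevpg1 in T helper cells is known to depend, was at most 0.28 TPM in any sample, so that Tmevpg1 was measured at several TPM in clones where Tbx21 was close to 0.

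Eomes, the T-box factor related to T-bet, was 12.4, 17.5 and 12.6 TPM in Rop7-I, 1.49, 2.45 and 3.07 in Rop7-II and 7.62, 7.55 and 5.30 in Rop7-III. The 3 clones did not overlap, and Rop7-II was lowest, as for Tmevpg1. The log2 difference of Eomes was 2.19 for Rop7-I minus Rop7-II (limma adjusted p = 0.000188) and 1.24 for Rop7-III minus Rop7-II (adjusted p = 0.00262), and that for Rop7-III minus Rop7-I, -0.95, did not pass (adjusted p = 0.0174).

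Stat4, which carries the signal of IL-12 to Ifng and is known to act with T-bet at Tmevpg1, was 90.2, 114 and 110 TPM in Rop7-II against 168 to 188 in Rop7-I and 196 to 203 in Rop7-III. It was higher in both other clones, by 0.94 in Rop7-III (limma adjusted p = 6.63e-05) and 0.75 in Rop7-I (adjusted p = 0.000378). Ifngr1, a chain of the interferon-γ receptor, was higher by 1.00 in Rop7-III (adjusted p = 0.000138) and by 1.08 in Rop7-I (adjusted p = 0.000142). Il18rap, a chain of the IL-18 receptor, was higher in Rop7-III compared with Rop7-II (1.34, adjusted p = 0.00213), at 0.36 to 3.96 TPM over all samples. Others of these genes had another order of clones. Ets1, a factor of T-cell development, was lowest on average in Rop7-I and higher in Rop7-III compared with it (0.20, adjusted p = 0.00965; 0.0265 without Rop7-I replicate 2). Runx3, a factor of the CD8 lineage, was 185 to 224 TPM in Rop7-I, 162 to 181 in Rop7-II and 151 to 164 in Rop7-III, and passed in no pair.

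NK cells are another cell type in which Tmevpg1 is known to be expressed, so their markers are given beside it. The sum of 8 NK markers was 30.36 to 38 TPM in Rop7-I, 11.97 to 19.9 in Rop7-II and 29.68 to 46.58 in Rop7-III, and most of it came from Eomes and Klrk1, which CD8 T cells also express, in every sample but Rop7-II replicate 1, where Fcgr3, also a myeloid marker, was 12.2 TPM. Ncr1, a more defining marker, was at most 1.19 TPM, in Rop7-II replicate 1, and at most 0.34 TPM in the other samples. Klrb1c was at most 0.6 TPM, and Klra8 and Klra4 were listed at 0 in 8 of 9 samples and at 0.18 and 0.21 TPM in the other one. Whether NK cells of the BALB/c background express Klrb1c, Klra8 and Klra4 was not checked, so these low values do not measure NK cells. Summed erythroid markers were higher in each Rop7-I sample than in each Rop7-II sample. With their level as a covariate, an alternative chosen after seeing the data, the log2 differences of Tmevpg1 were 1.55 (Rop7-III minus Rop7-II, limma adjusted p = 0.0101) and 1.95 (Rop7-I minus Rop7-II, adjusted p = 0.0547), and those of Neat1 were -0.47 (adjusted p = 0.0203) and -0.62 (adjusted p = 0.0773). The part of these cells in the results was not tested.

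Neighbours of the 8 RNAs are likewise given as single genes. Zbtb37, which overlaps Gas5 on the opposite strand, was lower in Rop7-III compared with Rop7-II (-0.34, limma adjusted p = 0.00437). It was 26.8, 27.7 and 29.1 TPM in Rop7-II and 22.4, 20.4 and 22.9 in Rop7-III, without overlap, as for Gas5. Frmd8, 4.22 kb from Neat1, was lower in Rop7-I compared with Rop7-II (-0.24, adjusted p = 0.00514; 0.0263 without Rop7-I replicate 2), as Neat1 was, and its difference between Rop7-III and Rop7-II did not pass (-0.10, adjusted p = 0.108). Slc3a2, beside Snhg1, and Trnau1ap, beside Snhg12, passed in no pair.

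Of 33 other long noncoding RNAs listed, 15 were tested, and 1 passed in 1 pair, beside 12.3%, 4.85% and 7.53% of all genes in the 3 pairs: Tug1, an abundant and widely expressed RNA, was 119, 113 and 118 TPM in Rop7-I and 99.7, 104 and 104 in Rop7-III (Rop7-III minus Rop7-I -0.18, limma adjusted p = 0.00821). It did not pass without Rop7-I replicate 2 (adjusted p = 0.0124). Kcnq1ot1 and Peg13, both from imprinted regions, and Ftx, of the X-inactivation centre, had F-test adjusted p of 0.0126, 0.0284 and 0.0228. Some differences that did not pass were as large as that of Neat1 between Rop7-III and Rop7-II: Ftx had -0.48 (Rop7-III minus Rop7-II, limma adjusted p = 0.0113), Pvt1 0.48 in the same pair (adjusted p = 0.0674) and Airn 0.48 (Rop7-III minus Rop7-I, adjusted p = 0.0549). The median log2 differences of the 15 were -0.03, 0.02 and -0.01 in the order of Rop7-III minus Rop7-II, Rop7-III minus Rop7-I and Rop7-I minus Rop7-II, against -0.02, -0.0035 and -0.01 over all genes.

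**Figure D5:**
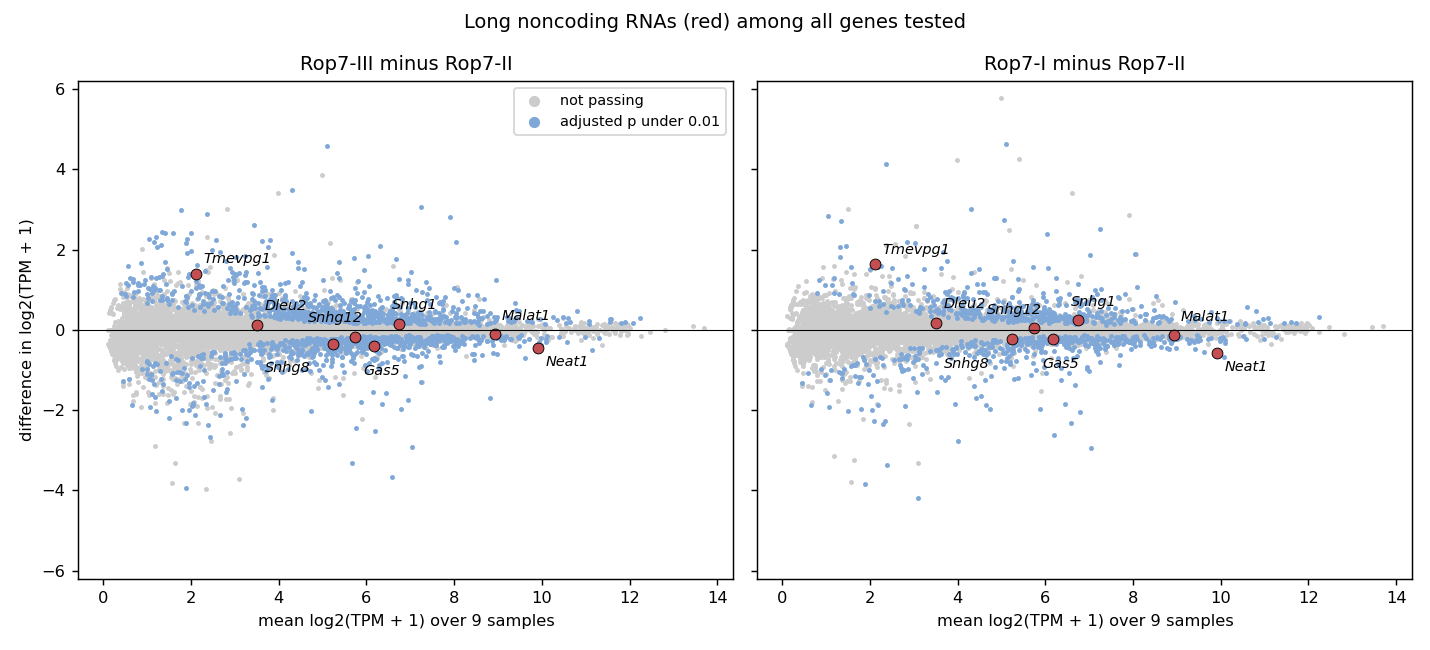
Difference in log2(TPM + 1) between 2 clones (vertical axes) against the mean log2(TPM + 1) over 9 samples (horizontal axes) for the 12115 genes tested; blue points passed at an adjusted p under 0.01 and red points are the 8 long noncoding RNAs. In the pairs drawn, Rop7-III minus Rop7-II and Rop7-I minus Rop7-II, Tmevpg1 lies above the main band of genes at a low level, and Neat1 below it at a high one.

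The genes most like each passing member were those with the highest Pearson's r of log2(TPM + 1) with it over the 9 samples. These are descriptions over samples that share clones and libraries. For Neat1 they were Vasp (r = 0.986), Coro1a (r = 0.967), both of actin regulation, and Pifo (r = 0.966). Vasp was 291, 280 and 254 TPM in Rop7-II against 222 to 247 TPM in the other samples. For Gas5 they were Mat2a (r = 0.982), which makes S-adenosylmethionine, and the RNA-binding protein genes Srsf3 (r = 0.982) and Hnrnpdl (r = 0.980). Srsf3 was 190, 174 and 171 TPM in Rop7-II, 155 to 158 in Rop7-I and 145 to 146 in Rop7-III, the same order of clones as Gas5. For Tmevpg1 they were Kpna4, an importin (r = 0.975), Lysmd1 (r = 0.973) and Gm3002 (r = 0.970).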

How the data were processed

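The authors aligned single-end, non-strand-specific reads of polyadenylated RNA to RefSeq genes of mm10 with RSEM 1.2.11 and deposited TPM per gene and sample, which sum to 1000000 or 1000001. They tested counts with DESeq2 1.8.1, which needs counts and was not used here. TPM hold no counts, and the paper gives only a typical number of reads per sample, so the depth of each single sample is unknown. Clones were taken from the labels. Here log2(TPM + 1) of the 12115 genes with a maximum over 1 TPM was fitted over the 9 samples together with limma 3.58.1 in R 4.3.3, unpaired and with the spread allowed to follow mean expression. Adjusted p-values are Benjamini-Hochberg over all genes tested in a pair, and passing means under 0.01. The script was tested on simulated data. The members and gene lists were chosen with earlier results of these data known. Genes named were the members, up to 5 per list with the smallest F-test adjusted p, the nearest coding genes, hosted RNAs and the 3 genes most like each passing member. Other genes named, such as Sfpq, Nono, Tbx21, Lyz2 and further list members, were chosen after their values were seen. Some genes that the rule names are not reported here. Alternatives were another pseudocount, filter, scaling, spread model, threshold or set of samples, sample weights, a replicate block, and levels of other cells' markers as covariates.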

Additional observations from a re-analysis of the deposited data

How the results depend on the processing

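Counts of members passing were 3 of 8 for Rop7-III minus Rop7-II, 0 for Rop7-III minus Rop7-I, 2 for Rop7-I minus Rop7-II and 3 in the F test. With at least a 2-fold difference they were 1 and 1 (Tmevpg1) in the pairs with Rop7-II. Rop7-I minus Rop7-II gave 1 (Neat1) when all 9 samples had to reach 1 TPM, where Tmevpg1 was not tested, and 0 in a fit of only the clones compared. Rop7-III minus Rop7-I gave 1 (Gas5) with sample weights, in a fit of only the clones compared and at an adjusted p under 0.05. Of the covariates, chosen after seeing the data, the myeloid level left 1 (Tmevpg1) in the F test, and the erythroid level left 1 (Gas5) for Rop7-III minus Rop7-II, 0 for Rop7-I minus Rop7-II and 1 (Gas5) in the F test. Leaving out each sample gave 1 to 3, 0 to 1, 1 to 3 and 3 to 3 in the order of the first sentence. The lowest counts were Gas5 alone, without Rop7-III replicate 2 or 3, and Tmevpg1 alone, without Rop7-I replicate 2, and the 1 for Rop7-III minus Rop7-I was Gas5, without Rop7-II replicate 1. Signs turned in differences that did not pass. Over the left-out samples Malat1 ranged from -0.29 to 0.0851 (Rop7-III minus Rop7-II), -0.16 to 0.14 (Rop7-III minus Rop7-I) and -0.24 to 0.0516 (Rop7-I minus Rop7-II), Snhg12 from -0.0335 to 0.11 (Rop7-I minus Rop7-II), and, for Rop7-III minus Rop7-I, Dleu2 from -0.12 to 0.0423, Tmevpg1 from -0.39 to 0.01 and Snhg8 from -0.23 to 6e-04. For the same pair Malat1 was -0.13 with the B-cell and -0.10 with the myeloid covariate, Dleu2 0.007 with the myeloid and Snhg8 0.0048 with the erythroid one. The cause of these changes was not tested. Samples with the same replicate number did not deviate together (r of -0.388 to 0.106 over 9 pairs). With different numbers r was -0.177 to 0.324 over 18 pairs. Deviations from means of 3 samples cannot exclude that the numbers mark a pairing. The replicate block gave 3, 0, 2 and 3 members passing and changed none of the 24 differences' calls.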
